A study of Mus musculus with 15 samples.

Results

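Mitochondria make most of the ATP of a resting cell with 5 protein complexes of the inner membrane. Complexes I and II pass electrons from NADH and succinate to ubiquinone, complex III passes them on to cytochrome c, complex IV passes them to oxygen, and ATP synthase (complex V) uses the proton gradient that the pumping complexes build to make ATP. Most subunits are encoded in the nucleus, and a few of the central subunits are encoded by the mitochondrial genome. In macrophages, IL-4 is known for a state that relies on oxidative metabolism. The genes described here are the nuclear genes for these subunits, taken as all mouse genes whose symbol starts with Ndufa, Ndufb, Ndufc, Ndufs, Ndufv, Uqcr, Cox4, Cox5, Cox6, Cox7, Cox8 or Atp5, together with Sdha to Sdhd, without the assembly factors named Ndufaf and without symbols marked as pseudogenes. The rule found 89 genes among the 53465 of the count table, with 39 in complex I, 4 in complex II, 8 in complex III, 21 in complex IV and 17 in complex V (Ndufa4 and Ndufa4l2 were counted with complex IV, where the Ndufa4 protein sits). Of these, 82 passed the filter on low counts and were tested among 13938 genes.

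RNA was sequenced from bone marrow-derived macrophages (BMDMs), which had been grown from bone marrow for 7 days with 20 ng/ml M-CSF, in 5 groups of 3 libraries, each harvested at 24 h. The study asked how IL-6 alters the response to IL-4 or IL-13, and the groups were cells without added cytokine (Control), with 10 ng/ml IL-4, with this IL-4 and 40 ng/ml IL-6 (IL-4/IL-6), with 40 ng/ml IL-13, and with this IL-13 and 40 ng/ml IL-6 (IL-13/IL-6). The age of the mice, 8 to 12 weeks, is given in the general methods for marrow cells and not for the sequenced libraries. No group with IL-6 alone was sequenced, and the labels do not say which libraries came from separate animals or cultures, so that the p-values measure the spread between these libraries. A legend of the study calls the libraries of its IL-4 and IL-4/IL-6 analysis biological replicates, and its statistical methods speak of independent experiments for the study as a whole. Neither says which libraries were made from which experiment. Library totals were between 17001352 and 18918686 counts.

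The label of the cells was checked with macrophage markers (among them Adgre1, Csf1r, Cd68 and Lyz2), of which all 8 were above 3 counts in at least 1 library of every group, with summed levels (CPM, counts scaled to a common library size) of 18900 to 21100 in Control, 14300 to 14800 in IL-4, 17100 to 19800 in IL-13, 10900 to 12700 in IL-4/IL-6 and 13900 to 14800 in IL-13/IL-6. With IL-4, 5 of the 8 were called lower, led by Mertk (log2 -4.1) and Cd14 (-1.52), and 1 higher, Cd68 (0.37), and with IL-13, 3 were lower and 3 higher. The response was checked with Mrc1, the mannose receptor that IL-4 and IL-13 are known to raise, whose mean normalized CPM was 196 without cytokine, 996 after IL-4 and 496 after IL-13. It is 1 of 5 response genes counted, of which 4 were higher and 1 lower with IL-4, and 3 higher and 1 lower with IL-13. The lower one was Socs3, a feedback inhibitor of IL-6 signalling (log2 -2.36 and -2.77), and Chil3 was not called with IL-13 (0.1). With IL-6 on either cytokine 4 of the 5 were higher, Socs3 by 6.25 on IL-4 and 6.39 on IL-13, and Retnla was lower (-0.87 and -1.14). Markers of other cells differed between the groups. Granulocyte markers (8 of 8 above 3 counts in Control, among them S100a8 and Elane) summed to 460 to 547 CPM in the Control libraries and to 0.979 to 2.14 CPM in the libraries with cytokine, where 1 to 4 of the 8 were above 3 counts. Markers of mast cells, basophils and eosinophils (6 of 6 in Control, 0 or 1 with cytokine) summed to 25.2 to 29.9 CPM against 0 to 0.443 CPM. Stromal markers (5 of 5 in Control, 0 or 1 with cytokine) summed to 16 to 20.2 CPM against 0 to 0.23 CPM, and all 5 were at 0 in IL-4. T cell markers (2 of 5 in Control) summed to 24.2 to 29.7 CPM against 0 to 0.394 CPM, and B cell markers (4 of 4 in Control) to 10.2 to 10.8 CPM against 0.567 to 1.55 CPM. Megakaryocyte markers (5 of 5 in Control, 4 or 5 of 5 with cytokine) summed to 380 to 426 CPM in Control, to 71.4 to 76.7 CPM with IL-4 alone and 73.8 to 90.6 CPM with IL-13 alone, and to 175 to 314 and 349 to 422 CPM in the respective groups with IL-6. The last sums were carried by Pf4 (means of 235 and 390.1 CPM, against 97.4 in Control), and the other 4 markers were lower than in Control in both groups with IL-6. Erythroid markers stayed under 1 CPM in every group. The part of these cells in the comparisons with Control was not tested, and in bulk RNA fewer cells of a type and less RNA per cell cannot be told apart.

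A pair of libraries stood apart from their groups. IL-4/IL-6 replicate 2 had the highest value of its group for 78 of the 82 genes, and IL-13 replicate 1 for 76 of the 82. Low libraries were one-sided too, with IL-4/IL-6 replicate 3 the lowest of its group for 73 genes and IL-13/IL-6 replicate 2 for 72. The median coefficient of variation of the genes was 5.17% in Control, 4.57% in IL-4, 25.4% in IL-4/IL-6, 16.3% in IL-13 and 9.4% in IL-13/IL-6. The genes are also short, with a median length of 1522.5 bases against 3891.5 for all genes tested, and 48 of the 82 are among the shortest genes tested, those of up to 1899 bases. When each library was set against the mean of all 15, the median of the 82 genes and the median of the other short genes (up to 1899 bases) took the same sign in every library. The IL-4/IL-6 replicate 2 library was 0.64 above the mean for the 82 genes and 0.32 above it for the other short genes on the log2 scale, while the Control libraries were 0.29 to 0.35 below it for the 82 genes and 0.13 to 0.17 below it for the other short genes.

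**Figure D1:**
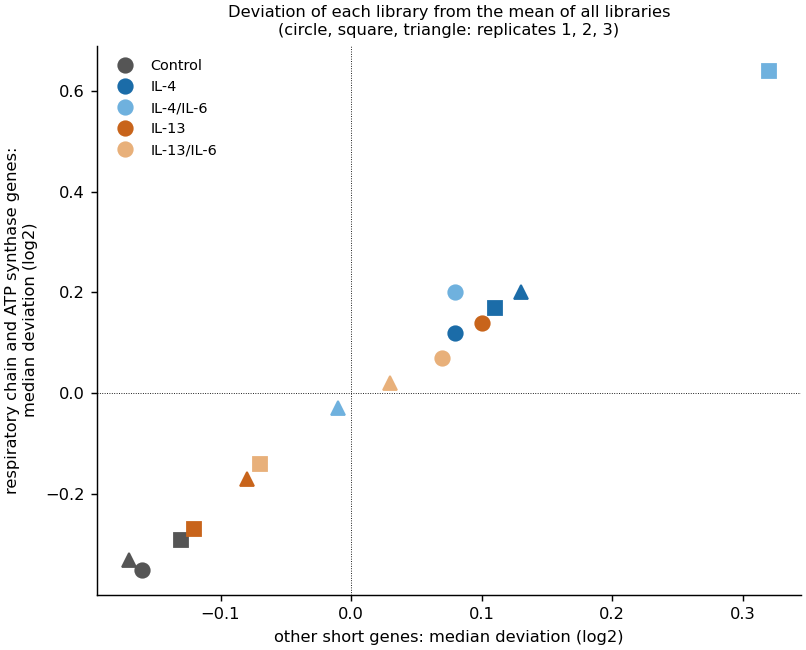
Median log2 deviation of each library from the mean of the 15 libraries, for the 82 tested respiratory chain and ATP synthase genes (vertical axis) and for the other tested genes of up to 1899 bases (horizontal axis), with circles, squares and triangles for replicates 1, 2 and 3. The libraries range from Control at the lower left to IL-4/IL-6 replicate 2 at 0.32 and 0.64.

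The upstream DNA of 5 genes is shown because the first 3 encode the same mature protein from separate genes and the others give a gene called higher and a gene called lower for comparison. Atp5g1, Atp5g2 and Atp5g3 all encode subunit c, which forms the rotating ring of ATP synthase, Ndufa11 encodes an accessory subunit of complex I, and Cox7a2l encodes a factor that links complexes III and IV into supercomplexes. The 100 bases before the RefSeq start site are given on the gene's own strand, from 5′ to 3′ (RefSeq, GRCm38.p6: Atp5g1 at chr11:96075632-96075731 on the minus strand, Atp5g2 at chr15:102671048-102671147 on the minus strand, Atp5g3 at chr2:73911327-73911426 on the minus strand, Ndufa11 at chr17:56717662-56717761 on the plus strand and Cox7a2l at chr17:83514334-83514433 on the minus strand). Capitals mark matches, on either strand, to 7 short motifs that were searched: GCATGCGC for NRF-1, CCGGAAG for ETS factors such as GABP, AAGATGG for YY1, CCAAT, CAAGGTCA for estrogen-related receptors, the STAT6 motif (TTC and GAA with 4 bases between them) and TTCNNNGAA for STAT3.
Atp5g1: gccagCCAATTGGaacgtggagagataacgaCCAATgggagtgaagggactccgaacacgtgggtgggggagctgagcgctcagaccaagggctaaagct
Atp5g2: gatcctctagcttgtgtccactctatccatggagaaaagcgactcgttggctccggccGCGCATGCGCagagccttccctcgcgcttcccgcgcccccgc
Atp5g3: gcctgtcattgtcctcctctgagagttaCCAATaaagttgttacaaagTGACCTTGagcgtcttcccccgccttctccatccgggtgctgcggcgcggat
Ndufa11: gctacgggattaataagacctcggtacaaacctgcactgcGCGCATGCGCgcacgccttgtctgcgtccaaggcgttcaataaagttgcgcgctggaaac
Cox7a2l: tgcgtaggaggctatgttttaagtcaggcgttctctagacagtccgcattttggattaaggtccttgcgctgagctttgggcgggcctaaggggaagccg
In the 300 bases around the start site (250 before it), Atp5g1 held 5 matches to CCAAT and none to the other motifs, Atp5g2 held an NRF-1 match on each strand that overlap each other, and Atp5g3 held a CCAAT match and an estrogen-related receptor match. Ndufa11 had the overlapping pair of NRF-1 matches too, and Cox7a2l had no match to any of the 7 motifs in its window. A match is a description of letters and not of binding.

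A promoter was found in the RefSeq table for 69 of the 89 genes. Among the 72 windows of tested genes (some genes have several), 13.9% held the NRF-1 motif, against 5.18% of the windows of all tested genes. The estrogen-related receptor motif was in 5.56% of the windows against 1.06%, and the YY1 motif in 15.3% against 7.18%. Of the others, the ETS motif was in 22.2% of the windows against 17.7%, CCAAT in 41.7% against 37.9%, the STAT3 motif in 8.33% against 6.81% and the STAT6 motif in 5.56% against 5.59%. The 52 windows of genes higher in IL-4 than in Control and the 20 of the other tested genes differed in both directions by motif, with 15.4% and 10.0% for NRF-1, 19.2% and 5.0% for YY1, 11.5% and 0.0% for STAT3, 5.77% and 5.0% for both STAT6 and the estrogen-related receptor motif, 21.2% and 25.0% for ETS, and 36.5% and 55.0% for CCAAT. These few windows were not tested.

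Levels between genes are given in FPKM, which scales counts by gene length and library size. For 90.8% of genes the length used equaled that of all annotated exons. The length of the transcripts present was not measured, so comparisons between genes depend on the annotation and are approximate. In Control the order was led by Atp5a1, the alpha subunit of the ATP synthase head, at 255 ± 3.93 FPKM (SD, n = 3), Cox8a at 249 ± 12.3 and Cox6a1 at 233 ± 18.8, both small subunits of complex IV. Atp5a1 and Cox8a differed by less than the SD of Cox8a. Cox7a2l followed in the fourth place at 184 ± 6.05 FPKM, ahead of Atp5b, the catalytic beta subunit, at 169 ± 5.85 FPKM. The median over the tested genes of a complex was 23.5 FPKM in complex I, 74.2 in complex II, 49.1 in complex III, 69.7 in complex IV and 40.5 in complex V. The lowest tested gene was Ndufb2 at 0.702 ± 0.133 FPKM, and Ndufb9 was at 3.77 ± 0.344 FPKM. Both are accessory subunits of complex I whose exons overlap other annotated genes (447 of 5628 bases of Ndufb2 with Gm42420 on its own strand and Gm16272 and Braf on the opposite one, and 201 of 1031 bases of Ndufb9 with Gm49356), so that their counts are uncertain.

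The 7 genes that were not tested are tissue isoforms or copies. No count was found in any library for Cox8b, the muscle form of subunit 8, Cox8c, its testis form, or Cox7b2. Ndufa11b and Cox6c2, which the annotation calls processed pseudogenes, had 2 and 26 counts over all libraries, and Ndufa4l2 had 6. Cox4i2, the hypoxia-linked isoform of subunit 4, had 68 counts, with 1 or fewer in each Control library, 1 to 4 with IL-4 and 2 to 12 with IL-13, and with 3 to 7 and 7 to 10 in the respective groups with IL-6. The other processed pseudogenes, Ndufb4c and Ndufs6b, were tested.

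With IL-4 the majority of the genes rose, across all complexes. Of the 82 genes, 55 were higher and 4 were lower than in Control at an adjusted p under 0.05, where 32.1% of all tested genes were higher and 35.9% were lower. The median log2 fold change of the 82 genes was 0.46, against -0.05 over all tested genes and 0.25 over the other short genes. The genes held 0.716%, 0.716% and 0.68% of the counts in the Control libraries and 0.877%, 0.906% and 0.922% in the IL-4 libraries, so that the groups did not overlap. When the trend of counts on gene length was removed from each library, 53 of the 82 genes were higher and 8 were lower, with a median of 0.38 against 0.06 for the other short genes (background 34.5% and 34.2%). All 3 IL-4 libraries were above all 3 Control libraries for 63 of the 82 genes and below them for 5, where 35.9% and 40.4% of all tested genes were so separated. Cell cycle genes, at a summed 1480 to 1690 CPM in Control and 2360 to 2480 CPM in IL-4 (6 of 16 called higher and 8 lower), also differed, and their part in the rise was not tested.

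**Figure D2:**
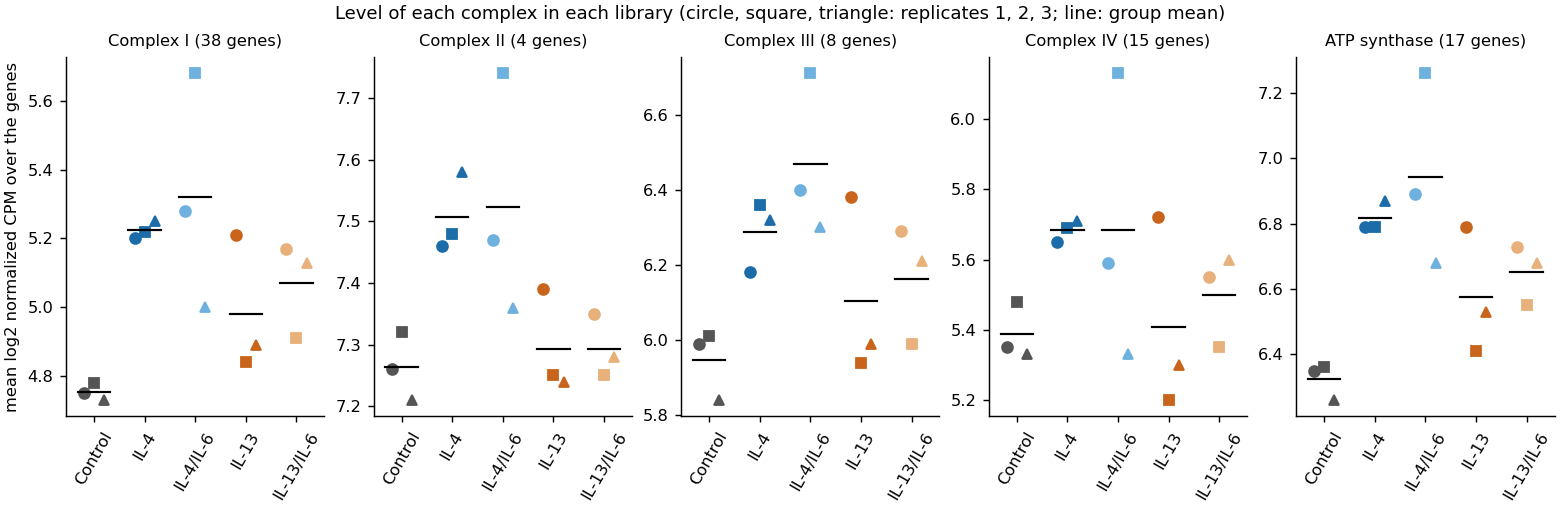
Mean log2 normalized CPM over the tested genes of each complex in each of the 15 libraries, with the group means as lines. In complex I the 3 IL-4 libraries lie between 5.2 and 5.25 and the 3 Control libraries between 4.73 and 4.78, while IL-4/IL-6 replicate 2 is the highest library in every complex.

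By complex, the median log2 fold change with IL-4 was 0.57 in complex I, 0.23 in complex II, 0.34 in complex III, 0.43 in complex IV and 0.42 in complex V. In complex I, 2 of the 7 nuclear core subunits and 22 of the 29 accessory subunits were higher, leaving out the processed pseudogenes Ndufb4c (log2 0.74, called higher) and Ndufs6b (0.71, not called). The core share is close to the 32.1% of all tested genes, and core and accessory subunits were not tested against each other. Ndufs7, a core subunit that holds the last iron-sulfur cluster before ubiquinone, had 48.1, 47.6 and 44.2 normalized CPM in Control and 82.2, 84.2 and 82.1 in IL-4. These groups lay far apart, at a log2 fold change of 0.83 ± 0.164 (SE, adjusted p = 0.000272 in edgeR's quasi-likelihood test). Ndufv2, an iron-sulfur subunit of the NADH module, rose as well, at 0.64 ± 0.154 (adjusted p = 0.00139). The core subunits Ndufv1, which binds NADH and flavin, Ndufs8, Ndufs1 and Ndufs3 did not pass the test, with log2 fold changes of 0.22, 0.2, 0.13 and 0.08.

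Among the accessory subunits, Ndufa12 had 28.1, 28.3 and 25.9 normalized CPM in Control and 55.0, 61.1 and 54.2 in IL-4, which is 2.07-fold higher (log2 1.05 ± 0.164, adjusted p = 2.53e-05). Every IL-4 library was above every Control library by a wide margin. Ndufb9 rose 2.42-fold (log2 1.27 ± 0.223, adjusted p = 8.39e-05), from 3.72 ± 0.368 to 9.02 ± 1.19 CPM (SD, n = 3), with the overlap named above. Ndufa5 and Ndufa7 both had a log2 fold change of 0.87. Ndufa11, whose upstream sequence is given above, rose from 35.9 ± 3.04 to 59.5 ± 5.7 CPM (SD, n = 3, log2 0.73 ± 0.15, adjusted p = 0.00039). Ndufb2 was the accessory subunit that fell, from 3.75, 3.10 and 4.49 CPM in Control to 2.30, 1.83 and 1.86 CPM in IL-4 (log2 -0.92 ± 0.243, adjusted p = 0.00307). These groups did not overlap, at the low level of a gene that shares exons with others.

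In complex II, which is also the succinate dehydrogenase of the citric acid cycle, the 4 genes did not move as one. Sdha, the catalytic flavoprotein, had 379, 364 and 345 normalized CPM in Control and 321, 320 and 325 in IL-4. All IL-4 libraries were below all Control libraries, by a small amount (log2 -0.17 ± 0.0529, adjusted p = 0.00848), and the call was lost in 6 of 16 alternative analyses, with an adjusted p of up to 0.893 against a fold change of 1.2. Sdhc, a membrane anchor, rose from 117 ± 5.7 to 186 ± 11 CPM (SD, n = 3, log2 0.67 ± 0.0953, adjusted p = 9.86e-06). Sdhb, the iron-sulfur subunit, rose by 0.34 (adjusted p = 0.017), and Sdhd, the other anchor, had 0.12 and no call.

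Of the 8 complex III genes that the rule found, the 4 called higher were all small accessory subunits. They were Uqcrq (log2 0.81 ± 0.156, adjusted p = 0.000207), Uqcr10 (0.72), Uqcr11 (0.7) and Uqcrb (0.62). The other genes found by the rule were not called. Uqcrc2 (log2 0.07) and Uqcrc1 (-0.15) form the matrix core. Uqcrfs1 (0.01) is the Rieske iron-sulfur protein and Uqcrh (-0.05) the hinge protein. Cyc1, the cytochrome c1 subunit that the rule leaves out, was called higher, at 0.84. Uqcrc1 varied widely within groups, with 92.4, 83.7 and 56.6 normalized CPM in Control and 53.4, 91.6 and 64.6 in IL-4, and these groups overlapped.

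Of 15 complex IV genes 10 rose, among them the gene with the largest rise of the 82, and 2 fell, against 32.1% and 35.9% of all tested genes. Cox6a2, the heart and skeletal muscle isoform of subunit 6a, rose 3.21-fold from a low level, with 1.15, 2.33 and 1.68 normalized CPM in Control and 6.48, 4.37 and 5.68 in IL-4 (log2 1.68 ± 0.236, adjusted p = 7.67e-06). The groups did not overlap, and 70 of the 680 exon bases of Cox6a2 are shared with Itgad on the opposite strand. The common isoform Cox6a1 rose less, by 0.57 on the log2 scale (adjusted p = 0.00548), from 164, 165 and 142 CPM to 224, 237 and 237 CPM. Cox7c had the second largest rise in the complex, at 1.88-fold, with 81.9, 82.4 and 82.2 CPM in Control and 147, 156 and 161 in IL-4 (log2 0.91 ± 0.135, adjusted p = 1.39e-05).

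Cox7a2l fell while Cox7a2 rose. Cox7a2l had 202, 211 and 195 normalized CPM in Control and 116, 116 and 124 in IL-4, and no library of one group came near the other. The decrease was 1.71-fold (log2 -0.78 ± 0.119, adjusted p = 2.02e-05). Cox7a2, the common isoform of subunit 7a, rose from 47.8, 53.0 and 41.6 CPM to 74.7, 76.4 and 73.8 CPM (log2 0.66 ± 0.167, adjusted p = 0.00218), and Cox7a1, the muscle isoform, from 1.16 ± 0.175 to 1.91 ± 0.427 CPM (SD, n = 3) with an adjusted p of 0.0408, although this last call was lost in 10 of 16 alternative analyses. Per length, Cox7a2l stood at 184 FPKM and Cox7a2 at 52.5 FPKM in Control, and at 104 and 80.3 FPKM in IL-4. Cox6b2, the testis isoform of subunit 6b, fell from 19, 25 and 15 counts in Control to 3, 7 and 2 counts in IL-4 (adjusted p = 0.00849), while the common isoform Cox6b1 rose by 0.43 on the log2 scale (adjusted p = 0.0111). Cox4i1, the main isoform of subunit 4, was not called, at 168 ± 8.06 CPM in Control and 163 ± 3.94 CPM in IL-4 (95% confidence interval of the log2 fold change -0.38 to 0.29).

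**Figure D3:**
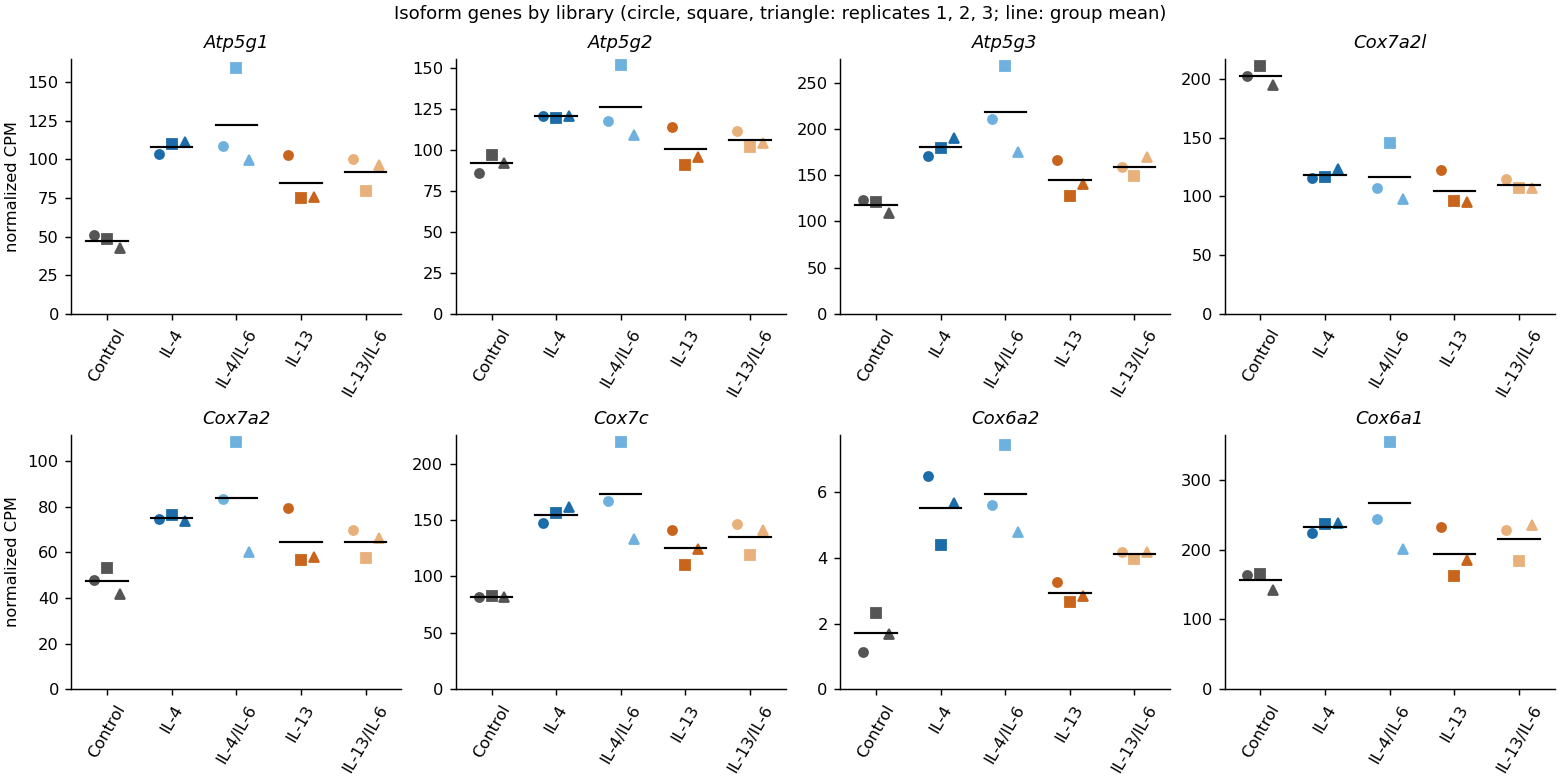
Normalized CPM in each library for the 3 genes of ATP synthase subunit c and for isoform genes of complex IV, with group means as lines and axes from 0. Atp5g1 lies between 42.4 and 51.0 CPM in Control and between 75.2 and 159 CPM with any cytokine, and Cox7a2l lies between 195 and 211 CPM in Control and between 95.4 and 146 CPM with any cytokine.

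In ATP synthase 14 of 17 genes were higher with IL-4 and none was lower, against 32.1% and 35.9% of all tested genes. Atp5b had 702, 697 and 656 normalized CPM in Control and 1091, 1116 and 1121 in IL-4. The groups lay far apart, and the rise was 1.62-fold (log2 0.7 ± 0.067, adjusted p = 8.65e-08). Its partner in the head, Atp5a1, rose by 0.26 on the log2 scale (adjusted p = 0.000445).

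All 3 genes of subunit c rose. Atp5g1 (ENSMUSG00000006057, chr11:96068852-96075670, minus strand) had 51.0, 48.7 and 42.4 normalized CPM in Control and 104, 110 and 111 in IL-4. Every IL-4 library was above every Control library, at a 2.28-fold rise (log2 1.19 ± 0.156, 95% confidence interval 0.86 to 1.52, adjusted p = 3.65e-06). Atp5g3 (ENSMUSG00000018770, chr2:73908447-73911326, minus strand) rose from 123, 120 and 109 to 171, 179 and 190 CPM (log2 0.61 ± 0.123, interval 0.35 to 0.87, adjusted p = 0.000305). Atp5g2 (ENSMUSG00000062683, chr15:102662864-102672352, minus strand) rose from 85.8, 97.0 and 92.2 to 121, 120 and 121 CPM (log2 0.39 ± 0.106, interval 0.17 to 0.62, adjusted p = 0.00341). The intervals of Atp5g1 and Atp5g2 do not meet, and the differences between the 3 genes were not tested in one model. Per length, Atp5g1 was the lowest of the 3 in both groups, at 10.1 FPKM in Control and 22.3 in IL-4. Atp5g2 had 57.1 and 72.7 FPKM, and Atp5g3 had 56.3 and 83.4. The lengths used were 4912 bases for Atp5g1, 1675 for Atp5g2 and 2181 for Atp5g3. In normalized CPM Atp5g1 was the lowest too, by a smaller margin.

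**Figure D4:**
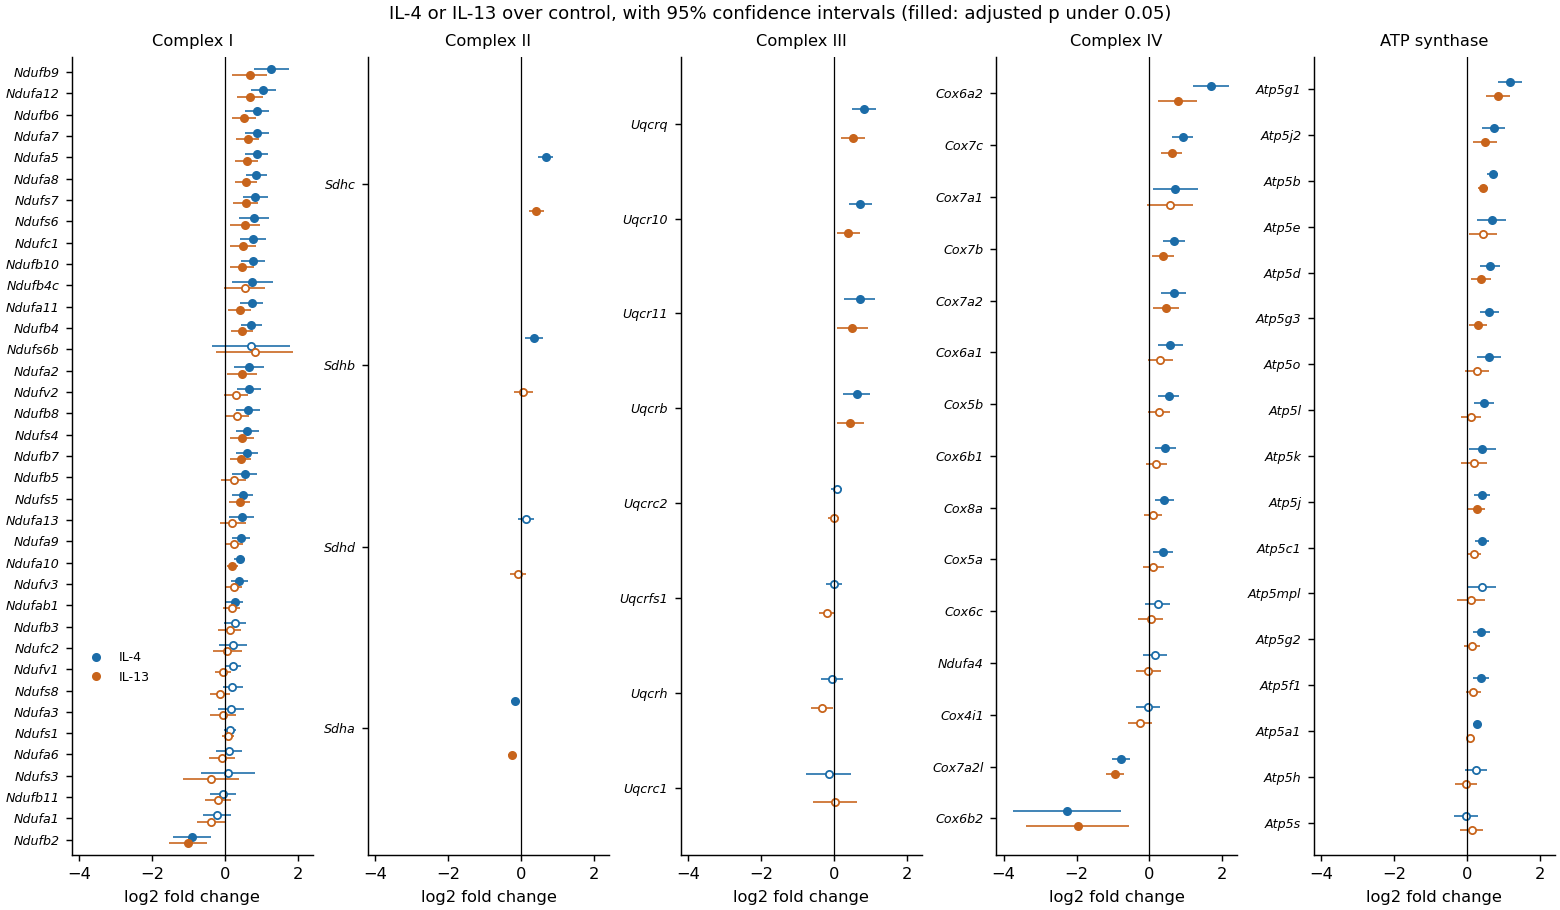
Log2 fold change of 81 of the 82 tested genes with IL-4 (blue) and IL-13 (orange) over Control, by complex, with 95% confidence intervals and filled points for calls. Most points lie right of 0 with IL-4, and Ndufb2, Sdha, Cox7a2l and Cox6b2 are filled left of 0.

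With IL-13, rises were called in all complexes and were mostly small. Of the 82 genes, 32 were higher and 4 were lower than in Control, where 29.0% of all tested genes were higher and 31.1% were lower. The median log2 fold change was 0.24, against -0.02 over all tested genes and 0.14 over the other short genes. IL-13 was given at 40 ng/ml and IL-4 at 10 ng/ml, and the comparisons share the Control libraries, so the values are set side by side only. Without IL-13 replicate 1, the library that stood apart, 14 genes were higher and 5 lower (background 27.8% and 25.9%), with a median of 0.15. With IL-4/IL-6 replicate 2 left out as well, 36 were higher and 11 lower (background 31.5% and 29.1%), at the same median of 0.15. That choice was made after seeing the data, and both fits hold the same IL-13 and Control libraries. With the length trend removed and all libraries kept, 37 were higher and 11 lower (background 32.4% and 29.8%). All 3 IL-13 libraries were above all Control libraries for 40 genes and below them for 7, against 32.3% and 34.8% of all tested genes. The cell cycle genes summed to 2560 to 2690 CPM in IL-13 (7 of 16 called higher and 7 lower), and their part was not tested.

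The gene with the largest called rise was Atp5g1, at 103, 75.2 and 75.3 normalized CPM against 51.0, 48.7 and 42.4 in Control (log2 0.84 ± 0.156, adjusted p = 0.000194). Its lowest IL-13 library was still above its highest Control library. Cox6a2 followed at 0.77 ± 0.251 (adjusted p = 0.0145), Ndufa12 at 0.68 ± 0.165 (adjusted p = 0.0019) and Ndufb9 at 0.67 ± 0.23 (adjusted p = 0.0193). Of the other subunit c genes, Atp5g3 had 0.3 (adjusted p = 0.0432, lost in 9 of 18 alternative analyses) and Atp5g2 had 0.13 and no call. Atp5b had 1006, 880 and 896 CPM, all above Control (log2 0.44 ± 0.0668, adjusted p = 2.56e-05).

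The 4 genes called lower with IL-13 were Cox7a2l, Ndufb2, Cox6b2 and Sdha. Cox7a2l had 123, 96.4 and 95.4 normalized CPM, all under the 195 of the lowest Control library (1.93-fold lower, log2 -0.95 ± 0.119, adjusted p = 2.76e-06). Sdha had 296, 313 and 299 CPM, also without overlap (log2 -0.26 ± 0.0529, adjusted p = 0.000402). By complex the medians were 0.31 in complex I, -0.02 in complex II, 0.21 in complex III, 0.19 in complex IV and 0.2 in complex V. Ndufs7 was the nuclear core subunit of complex I that passed the test (log2 0.56, adjusted p = 0.00722), and 16 of the 29 accessory subunits were higher (the processed pseudogenes left out), against 29.0% of all tested genes. These counts include IL-13 replicate 1. Without it 14 of the 82 genes were higher, and 36 with IL-4/IL-6 replicate 2 left out as well. Of the complex III genes found by the rule, those called were Uqcrq, Uqcr11, Uqcrb and Uqcr10, at 0.53, 0.49, 0.45 and 0.39.

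Few of the genes were called with co-addition of IL-6 in the fit of all libraries. With IL-6 added to IL-4, 6 of the 82 genes were higher and 1 was lower, where 20.7% of all tested genes were higher and 18.7% were lower, and the median log2 fold change was 0.15 against 0.04 over all genes. With IL-6 added to IL-13, 1 gene was higher and none was lower in edgeR's test, where the background was 12.1% and 13.5%, and the median was 0.08 against 0.01. At an unadjusted p under 0.05 there were 13 and 3 genes in these comparisons, where 6586 and 4841 of the 13938 tested genes were. By DESeq2 the counts were 6 and 1 on IL-4 and 1 and 0 on IL-13. Of 25254 genes, DESeq2 called 2809 higher and 2622 lower on IL-4, and 1727 and 1905 on IL-13. The libraries with IL-6 were all above those without it for 10 genes on IL-4 and 3 on IL-13 and all below them for none, against 24.3% and 18.5% of all tested genes above and 22.4% and 19.3% below. The 16 cell cycle genes of the marker lists were all lower with IL-6 in both comparisons, with summed levels of 1100 to 1200 CPM with and 2360 to 2480 CPM without IL-6 in the presence of IL-4, and their part in these results was not tested.

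Of the 6 genes called higher with IL-6 on IL-4, 3 were ATP synthase genes. They are 3 of 17 tested in that complex (17.6%), against 20.7% of all tested genes. Atp5f1, which encodes subunit b of the stator stalk, had 252, 244 and 273 normalized CPM in IL-4 and 322, 408 and 296 in IL-4/IL-6 (log2 0.42 ± 0.0975, adjusted p = 0.00232). Atp5b had 1091, 1116 and 1121 CPM in IL-4 and 1346, 1446 and 1239 in IL-4/IL-6 (log2 0.28 ± 0.0667, adjusted p = 0.00298). For both genes all libraries with IL-6 were above all libraries without it, and 540 of the 4105 exon bases of Atp5f1 are shared with Wdr77 and Gm42890 on the opposite strand. Atp5a1 rose by 0.19 (adjusted p = 0.0113). In complex I the core subunit Ndufs1 had 78.4, 79.9 and 84.9 CPM in IL-4 and 94.6, 113 and 97.9 in IL-4/IL-6, without overlap (log2 0.33 ± 0.0733, adjusted p = 0.00165), and 498 of its 8086 exon bases are shared with Eef1b2 and Ino80dos on the opposite strand. The accessory subunits Ndufs5 (0.42 ± 0.131, adjusted p = 0.0177) and Ndufa10 (0.2 ± 0.0709, adjusted p = 0.031) were called higher too, and these calls were lost in 6 and 12 of 18 alternative analyses, with adjusted p-values up to 0.15 and 0.837.

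Ndufs3, a core subunit of the ubiquinone-binding module, was the gene called lower with IL-6 on IL-4. Its libraries were spread, with 14.2, 5.65 and 11 normalized CPM in IL-4 and 7.43, 4.07 and 3.22 in IL-4/IL-6, and the groups overlapped (log2 -1.07 ± 0.378, adjusted p = 0.033). The call was lost in 5 of 18 alternative analyses, with an adjusted p up to 0.164, and 88 of its 2178 exon bases overlap Kbtbd4 on the opposite strand. On IL-13, Atp5f1 was the gene called, with 247, 216 and 203 CPM in IL-13 and 275, 264 and 271 in IL-13/IL-6 (log2 0.28 ± 0.0976, adjusted p = 0.0415, lost in 9 of 18 alternatives). These groups did not overlap.

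The IL-6 comparisons rest on the libraries that stood apart. Without IL-4/IL-6 replicate 2, 5 genes were higher and 6 were lower with IL-6 on IL-4 (background 19.2% and 19.4%), and the median changed sign to -0.08. Atp5f1 (0.26), Atp5b (0.21) and Ndufs1 (0.23) were still called higher in this fit, and Uqcrc1 (0.76) and Uqcrc2 (0.2) were now called too. Atp5a1, Ndufs5 and Ndufa10 were not, at log2 0.13, 0.22 and 0.12. The 6 genes then called lower were Ndufa5 (-0.41), Ndufa2 (-0.38), Ndufa3 (-0.31), Atp5j (-0.27), Sdhb (-0.26) and Sdhc (-0.25). Without IL-4/IL-6 replicate 3 instead, 21 genes were higher and none was lower (background 20.8% and 19.2%), with a median of 0.26.

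Without IL-13 replicate 1, co-addition of IL-6 gave 3 higher genes and none lower (background 11.2% and 13.6%), with a median of 0.19. The genes were Atp5f1 (0.36), Ndufa12 (0.45) and Atp5b (0.21). Leaving out any other single library of IL-13 or IL-13/IL-6 gave no calls (background 9.29% to 10.4% and 11.0% to 11.7%). The medians then ran from -0.01 without IL-13 replicate 2 to 0.13 without IL-13/IL-6 replicate 2. With both of the libraries that stood apart left out, a choice made after seeing the data, 7 genes were higher and 14 lower with IL-6 on IL-4 (background 21.7% and 21.2%), and 32 were higher and none lower with IL-6 on IL-13 (background 17.0% and 18.0%). In that fit 26 genes differed between the IL-6 effects (background 9.05% and 8.58%), all with the larger value on IL-13. Leaving out a high IL-4/IL-6 library and a high IL-13 library moves these values in that direction by construction, so the direction of the 26 and of the 32 is no result. The fit of all libraries called none of the 82 in either direction (background 4.42% and 3.22%, 2 at an unadjusted p under 0.05, and 1 in each direction by DESeq2).

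**Figure D5:**
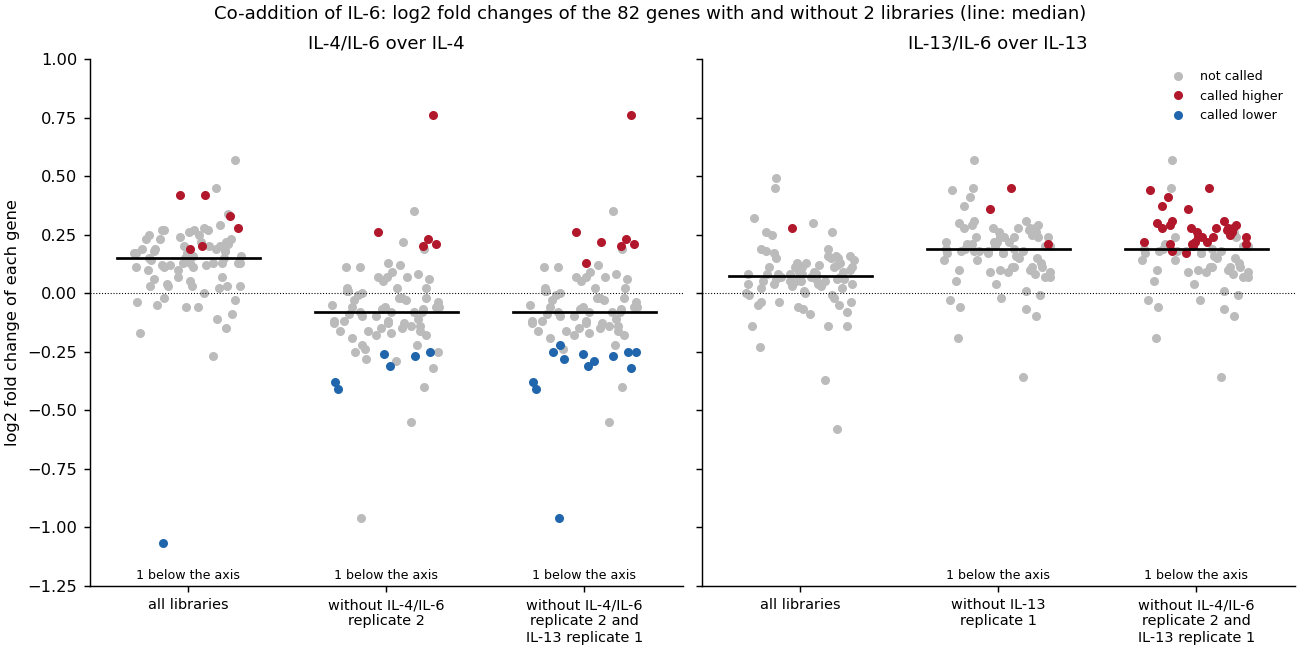
Log2 fold changes of the 82 genes with co-addition of IL-6 to IL-4 (left) and to IL-13 (right), with all libraries and without the libraries that stood apart, with medians as lines called genes in color and genes beyond the axis counted at its foot. On IL-4 the median moves from 0.15 to -0.08, and on IL-13 from 0.08 to 0.19.

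The groups with IL-6 were also compared with Control, whose libraries these comparisons share with those above. In IL-4/IL-6, 64 of the 82 genes were higher and 4 lower (background 35.4% and 37.5%), with a median of 0.6. The 4 lower genes were Cox7a2l, Cox6b2, Sdha and Ndufs3 (log2 -0.99 ± 0.379, adjusted p = 0.0271, and 0.072 without IL-4/IL-6 replicate 2), while Ndufb2 was not called (-0.47, adjusted p = 0.0849). In IL-13/IL-6, 40 were higher and 5 lower (background 31.9% and 32.1%), with a median of 0.3. Atp5g1 had 109, 159 and 99.9 normalized CPM in IL-4/IL-6 and no less than 79.4 in IL-13/IL-6, all above the Control libraries. Cox7a2l stayed under its Control libraries too, at 107, 146 and 97.6 CPM in IL-4/IL-6 and 114, 107 and 107 in IL-13/IL-6. Ndufa1, a small membrane subunit of complex I, was called lower in IL-13/IL-6 (log2 -0.44 ± 0.182, adjusted p = 0.0425), beside Cox7a2l, Cox6b2, Sdha and Ndufb2.

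Other genes of the pathway, taken from lists, were counted in the same fit. Cytochrome c (Cycs) and cytochrome c1 (Cyc1), a complex III subunit outside the symbol rule, were both higher with IL-4. Cycs went from a mean of 44.5 to 111 normalized CPM (log2 1.32) and Cyc1 from 74.7 to 134 CPM (0.84). With IL-13 both were higher again (1.17 and 0.53). With IL-6 on IL-4 both rose further (0.42 and 0.28), with IL-4/IL-6 replicate 2, the library that stood apart, included. With IL-6 on IL-13 neither was called, at 0.11 to 0.2. Of 11 tested subunit genes of the mitochondrial genome, 8 were higher with IL-4 and 7 with IL-13 (32.1% and 29.0% of all tested genes were), and none was called with IL-6 on either (20.7% and 12.1% of all tested genes were higher). Among them, mt-Nd1 went from 1705 to 2558 CPM with IL-4 (0.59) and mt-Cytb from 2120 to 2876 CPM (0.44), while mt-Co1 (0.06) and mt-Nd5 (-0.01) were not called.

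Assembly factors build the complexes and are no part of them. With IL-4, where 32.1% of all tested genes were higher and 35.9% were lower, 13 of 15 complex I assembly factors were higher and none was lower, led by Ndufaf4 (12.8 to 32.7 normalized CPM, log2 1.36) and Ndufaf8 (1.07). For complexes II and III the count was 5 of 10, led by Uqcc2 (1.31), and for complex IV it was 9 higher and 1 lower of 18, led by Cox16 (1.22, at 1.11 CPM in IL-4) and Cox18 (1.06), with Surf1 lower (-0.44). For ATP synthase 2 of 3 were higher, with Atpaf2 at 0.63. With IL-6 on IL-4, where the shares over all tested genes were 20.7% and 18.7%, 7 of the 18 complex IV assembly factors were higher, among them Cox19 (0.54) and Taco1 (0.45). For complex I the counts with IL-6 were 5 higher and 2 lower of 15, the latter being Nubpl (-0.57) and Ndufaf7 (-0.41). These counts include IL-4/IL-6 replicate 2, the library that stood apart. With IL-6 on IL-13 no assembly factor of complex I or IV was higher and 1 of each was lower, Ndufaf7 (-0.61) and Cox17 (-0.52), where 12.1% of all tested genes were higher and 13.5% lower.

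Of 12 tested regulators of mitochondrial genes, 8 were higher and 2 were lower with IL-4, where 32.1% of all tested genes were higher and 35.9% were lower. Myc, a growth-linked transcription factor, went from a mean of 11.8 to 123 normalized CPM (log2 3.38), Pprc1, a coactivator of the PGC-1 family, from 37.0 to 81.9 CPM (1.15), and Tfam, which packages and transcribes mitochondrial DNA, from 24.6 to 38.6 CPM (0.65). Gabpa (-0.3) and Nrf1 (-0.23), which encode factors whose motifs were searched above, were lower, and Yy1 was not called (0.02). With IL-13 Myc (2.93) and Pprc1 (1.2) rose too, and Ppargc1b, another PGC-1 coactivator, was lower (-0.42) where it was higher with IL-4 (0.43). With IL-6 on either cytokine none of the 12 was called, against 20.7% of all tested genes higher and 18.7% lower on IL-4 and 12.1% and 13.5% on IL-13. Ribosomal protein genes, which are also short, were counted beside these: 66 of 77 mitochondrial ones were higher with IL-4 (median 0.67) and 86 of 98 cytosolic ones (median 0.62), where 32.1% of all tested genes were.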

How the data were processed

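RNA of 15 BMDM libraries (5 groups of 3) was sequenced. The authors deposited raw counts per gene for 53465 Ensembl identifiers and, for each library, FPKM values that they had made from these counts. Over 192221 values, the gene length that counts and deposited FPKM imply differed between libraries by a relative 1.1e-07 at most, and it equaled the length of all annotated exons for 90.8% of genes. Lengths given here are the implied ones. The submitters' processing notes list CASAVA, Bowtie2 2.2.3, HISAT2 2.1.0, TopHat2, DESeq2 and GRCm38, without roles. Whether counting used strand is not given in the sources used here, so counts of overlapping and antisense genes are uncertain. Symbols were found for 53274 identifiers, and gene positions are those of GRCm38.

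The test was that of edgeR 4.0.16 (R 4.3.3): filterByExpr (minimum count 10), TMM factors, one quasi-likelihood fit of all 15 libraries without covariates, contrasts by F-test, Benjamini-Hochberg adjustment over 13938 genes, and calls at an adjusted p under 0.05. A fold change is on the log2 scale. Normalized CPM used TMM-scaled library sizes, and log2 CPM of libraries a prior count of 2. Library totals were 17001352 to 18918686 counts. FPKM was used for levels between genes and not for tests. Replicates of a group differed by more than sampling noise, and the biological coefficient of variation ran from 4.48% in Control to 14.8% in IL-4/IL-6.

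The members and lists were chosen with earlier results of these data known. The mouse line and 1 of the genes are not reported here. The named genes were the core subunits of complex I, Sdha to Sdhd, isoform genes, the highest and lowest changes of each complex and comparison, the 5 highest and 5 lowest calls, and the extreme calls of the other lists. A few more (Atp5a1, Ndufa1, Ndufa2, Ndufa3, Ndufa11, Ndufb4c, Uqcr11, Uqcrb, Uqcrc2, Uqcrfs1 and some list genes) were named after their values were seen.

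The fit was tested on simulated counts for IL-4 over Control: of genes changed by 1 on the log2 scale, 42 of 50 raised and 40 of 49 lowered were called, of those changed by 0.5, 29 of 50 and 28 of 48, and of 13308 unchanged genes 7. The alternatives tried were DESeq2 1.42.0 (own size factors), upper-quartile factors, library totals, no filter, the replicate block, only the groups compared, trends on length and GC content as offsets, a test against a fold change of 1.2 (glmTreat), and leaving out each library. Leaving out both libraries that stood apart, with and without the length trend, and using only protein-coding genes without exon overlap were added after seeing the data.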

Additional observations from a re-analysis of the deposited data

How the results depend on the processing

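For the calls that the fit of all libraries made on the genes taken by the naming rule, with IL-4, IL-13 or IL-6 on either, 868 of the recomputed values kept the call, 100 lost it and none reversed. Calls of the groups with IL-6 over Control, and those on genes named outside the rule, are not in this tally. Genes without a call could change sign, as Ndufa3 did with IL-6 on IL-4 (0.03, and -0.31 without IL-4/IL-6 replicate 2). Higher calls with IL-4 were 50 to 54 when 1 library was left out, and those with IL-13 were 14 (without IL-13 replicate 1) to 40. The other ranges on leaving out 1 library were, for higher and lower calls, 3 to 21 and 0 to 6 for IL-6 on IL-4. The shares of all tested genes were 15.2% to 20.8% and 16.7% to 19.4%. For IL-6 on IL-13 the calls were 0 to 3 and 0 to 0 (shares 9.29% to 11.2% and 11.0% to 13.6%). In IL-4/IL-6 over Control they were 55 to 68 and 2 to 5 (shares 32.5% to 34.3% and 34.6% to 37.5%). In IL-13/IL-6 over Control they were 32 to 41 and 3 to 4 (shares 28.9% to 30.5% and 28.3% to 30.8%). For the difference between the IL-6 effects they were 0 to 1 and 0 to 0 (shares 3.42% to 5.59% and 2.05% to 4.25%). Lower calls were 3 to 4 with IL-4 (31.5% to 33.6% of all tested genes) and 3 to 5 with IL-13 (25.9% to 29.3%). The cause was not tested for any of the shifts given here.

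Lower calls with IL-13 were 7 with library totals or without a filter. With the length trend, with or without the replicate block, lower calls were 8 with IL-4, 11 with IL-13 and 10 in IL-13/IL-6 over Control. Higher calls with IL-6 on IL-4 were 10. Without the block the shares were 34.2%, 29.8%, 31.4% and 22.8%. With GC and length trends these counts were 8 (34.3%), 12 (30.1%), 10 (31.9%) and 12 (23.4%), with 2 lower calls with IL-6 on IL-4 (20.8%). Against a fold change of 1.2, higher calls were 11 of 82 with IL-13, a lower share than the 20.6% of all tested genes. In IL-13/IL-6 over Control 22 were higher (23.7%) and 3 lower (25.7%). With IL-6 on IL-4 (10.5% and 12.8%) or on IL-13 (6.11% and 7.74%) 0 calls were left. For IL-6 on IL-4, upper-quartile factors gave 3 higher calls (14.9%) and no filter gave 11 (10.5%). The median of the 82 genes was 0.06 with upper-quartile factors (-0.05 over all genes) and 0.04 with library totals (-0.06). For IL-6 on IL-13 there were 5 higher calls without a filter (7.30%). There were 0 with upper-quartile factors (10.4%), library totals (9.10%) or the replicate block (11.5%). The median was 0.04 with upper-quartile factors (-0.03 over all genes) and 0.01 with library totals (-0.06). The difference between the IL-6 effects had 1 call in each direction with DESeq2 (740 higher and 557 lower of 25254 genes) and without a filter (3.37% and 1.55%). Without the libraries that stood apart, 36 genes were higher (31.5%) and 11 lower (29.1%) with IL-13. With IL-6 on IL-4 14 were lower (21.2%), with IL-6 on IL-13 32 were higher (17.0%), and for the difference 26 were higher (9.05%). With the length trend as well, 40 were higher (33.9%) and 13 lower (27.4%) with IL-13. The other counts were 14 (22.8%), 16 (17.4%) and 11 (9.39%), with 9 lower calls in IL-4/IL-6 over Control (34.5%). The log2 level of complex II in IL-13 over Control changed sign from 0.03 to -0.05 with summed CPM and -0.06 with summed FPKM. With IL-4 it was 0.24, and 0.14 and 0.13 on these scales, while complexes I and V went from 0.47 and 0.49 to 0.41 and 0.43 with summed FPKM.

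Pairing by the replicate numbers of the labels was not seen, with correlations of same-numbered libraries between -0.28 and 0.16. Of these 3 of 30 were over 0.1, and 3 of 15 libraries correlated best with their own number. The highest correlation, 0.39, joined IL-4/IL-6 replicate 2 and IL-13 replicate 1, the libraries that stood apart. A weaker pairing could not be seen beside such shifts. With the replicate block, higher and lower calls were 53 and 4 with IL-4 (31.5% and 35.2% of all tested genes) and 28 and 4 with IL-13 (28.2% and 30.2%). They were 6 and 1 with IL-6 on IL-4 (19.4% and 18.1%), and 0 and 0 with IL-6 on IL-13 (11.5% and 12.7%). Among the 51 protein-coding genes without exon overlap, 34 were higher and 3 lower with IL-4, and 23 and 3 with IL-13, against 32.1% and 35.9%, and 29.0% and 31.1%, of all tested genes. Depth limits the genes under about 1 CPM, such as Cox6b2 and Ndufs6b.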

Other observations

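The symbol rule leaves out 3 genes of ATP synthase and complex I that were looked up by name. Usmg5, a small ATP synthase subunit, had a mean of 25.9 normalized CPM in Control and 40.2 in IL-4 (log2 0.63, called higher), Ndufb1-ps, the gene listed for a small complex I subunit, had 15.8 and 24.0 (0.6, called higher), and Atpif1, the inhibitor of ATP synthase, had 10.2 and 20.0 (0.97, called higher). With IL-13 Atpif1 was called higher (0.76), and the values of Usmg5 (0.38) and Ndufb1-ps (0.34) were not called. With IL-6 none of these genes was called on either cytokine.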
